A study of Mus musculus with 6 samples.

Results

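Accessible regions at 6 imprinted gene clusters were compared between wild-type cells and 2 Alkbh5 mutants in E14TG2a cells, a mouse embryonic stem cell line. Merging the peaks of the 6 libraries wherever they shared at least 1 bp gave 259376 regions. The 439 regions that overlap 6 windows of the GRCm39 genome make up the imprinted set. The windows run from H19 to Phlda2 (chr7:142050000-143100000), from Snrpn to Mkrn3 (chr7:59500000-62500000), around Peg3 (chr7:6650000-6800000), from Dlk1 to Dio3 (chr12:109400000-110300000), over Igf2r and Airn (chr17:12600000-13020000) and over Gnas (chr2:174080000-174200000). They stand for 35 listed genes, and membership rests on position and a call in any library, not on a difference between genotypes.

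Open chromatin was assayed by ATAC-seq, where a transposase cuts accessible DNA and leaves sequencing adapters there. There were 2 libraries each of wild type (WT), of an Alkbh5 knockout (KO) and of del-cIDR, an Alkbh5 allele without the segment called cIDR. ALKBH5 is a demethylase that removes N6-methyladenosine from RNA, and IDR in the series title stands for intrinsically disordered region. All 3 genotypes were grown in serum with LIF, the MEK inhibitor PD0325901 and the GSK3 inhibitor CHIR99021, and spike-in nuclei were added to every sample. The labels do not say how many clones stand behind a genotype or whether the 2 libraries came from separate cultures, so the spread between libraries may be technical, and a genotype cannot be told apart from a clone.

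Imprinted genes are transcribed from the maternal or the paternal chromosome only, and they lie in clusters that share a control region whose DNA methylation was set in the egg or the sperm. On the unmethylated chromosome such a control region often acts as a promoter of a long noncoding RNA or as a binding site of the insulator protein CTCF, and ZFP57 holds the methylation in early embryos and stem cells by binding the methylated word TGCCGC. Embryonic stem cell cultures are known to lose or gain imprints. The peak lists carry no allele, so opening on the maternal and the paternal chromosome cannot be told apart. In bulk libraries a region open in fewer cells and a region less open in every cell cannot be told apart either.

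To show what the promoters of these clusters look like, the sequences of 5 genes are printed here from RefSeq (GRCm38.p6), 250 bases before to 50 bases after the start of the transcript. They come from 4 of the windows, and capitals mark TGCCGC on either strand.
Snurf: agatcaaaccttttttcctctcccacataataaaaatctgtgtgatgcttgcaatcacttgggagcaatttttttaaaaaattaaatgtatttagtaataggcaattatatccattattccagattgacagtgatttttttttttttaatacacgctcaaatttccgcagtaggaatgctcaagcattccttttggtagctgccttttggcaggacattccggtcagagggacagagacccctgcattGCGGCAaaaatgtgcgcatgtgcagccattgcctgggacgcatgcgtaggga
Peg3: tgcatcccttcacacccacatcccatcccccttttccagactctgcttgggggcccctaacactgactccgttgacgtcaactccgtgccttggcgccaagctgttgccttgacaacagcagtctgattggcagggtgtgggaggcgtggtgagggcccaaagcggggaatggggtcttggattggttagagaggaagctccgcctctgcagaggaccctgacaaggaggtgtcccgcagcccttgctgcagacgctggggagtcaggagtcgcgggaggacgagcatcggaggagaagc
Meg3: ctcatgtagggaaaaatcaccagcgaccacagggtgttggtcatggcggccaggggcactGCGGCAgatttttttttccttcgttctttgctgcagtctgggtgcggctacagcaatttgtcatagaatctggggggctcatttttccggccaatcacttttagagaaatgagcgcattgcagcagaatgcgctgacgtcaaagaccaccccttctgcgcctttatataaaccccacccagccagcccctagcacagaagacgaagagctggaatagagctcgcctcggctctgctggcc
Airn: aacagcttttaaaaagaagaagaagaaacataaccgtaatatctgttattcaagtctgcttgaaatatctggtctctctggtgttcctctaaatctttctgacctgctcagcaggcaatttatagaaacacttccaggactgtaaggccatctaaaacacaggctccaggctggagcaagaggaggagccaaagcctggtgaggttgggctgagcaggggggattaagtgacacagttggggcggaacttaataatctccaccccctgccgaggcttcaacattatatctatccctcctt
Igf2r: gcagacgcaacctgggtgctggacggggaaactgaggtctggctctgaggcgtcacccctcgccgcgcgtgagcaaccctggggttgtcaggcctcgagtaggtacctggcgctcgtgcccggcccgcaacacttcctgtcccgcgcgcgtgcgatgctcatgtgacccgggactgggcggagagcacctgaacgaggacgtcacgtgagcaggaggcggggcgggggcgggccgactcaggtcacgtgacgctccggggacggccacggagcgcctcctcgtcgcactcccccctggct
The Igf2r promoter held 34 CpG dinucleotides and the promoter of Airn, its antisense noncoding RNA, held 3. Peg3 and the printed promoter of Meg3 held 13 each, the other promoter of Meg3 held 1 with no TGCCGC, and Snurf, which is made from the same transcript as Snrpn, held 7. Of the 35 listed genes, 34 were found in the gene table, all but Nespas, and 28 had a promoter sequence, 37 distinct ones in all. These had a median of 11 CpG (range 0 to 40), against a median of 7 over 32851 mouse promoters of the same length. TGCCGC was present on either strand in 5 of the 37 promoters (13.5%) and in 11.6% of all promoters. A CTCF consensus word of 14 letters was in 0 of 37 and in 0.122% of all promoters, and a YY1 word, AANATGGC, was in 1 of 37, that of Mkrn3, and in 6.05% of all promoters. TGCCGC can lie inside the CTCF word read on the other strand, and each match is a match of letters only.

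The 6 lists held 150680 to 193905 mouse peaks, and the median summit height was 17 to 21 tags per list. The 2 WT lists were the longest, so fewer calls in a mutant need not be particular to a region. The main counts are given with the share over all regions. Some counts by window and by alternative setting have no such share, and these do not account for list length. A region with no call in a library can still be open there, too weakly to be called. The genes were not placed on GRCm39, so regions are named by position and window, and the deleted gene and cell type markers were not analysed here.

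The imprinted set resembled the rest of the genome in how steadily its regions were called. In all 6 libraries 162 of the 439 regions were called, 36.9% against 38.3% of all regions, and 113 regions, 25.7% against 25.2%, were called in 1 library only. Regions called in all 6 had a median width of 544 bp, against 555 bp over all regions, and the 6 summits of such a region lay within a median of 65 bp, against 69 bp. The windows themselves differed in density. Gnas held 242 regions per Mb, Peg3 153, Dlk1 to Dio3 146, Igf2r and Airn 140 and H19 to Phlda2 118, whereas Snrpn to Mkrn3 held 24.3. The rest of chromosomes 2, 7, 12 and 17 held 95 to 117 per Mb. Snrpn to Mkrn3 was thus the sparsest window, with one stretch of 281.7 kb without a region, and the longest such stretch in the other windows was 57.2 kb.

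A few tall regions carried much of the height in the small windows. In Peg3 the tallest 3 regions held 64.6% of the summed height of the 10 regions called in all 6 libraries, in Gnas 52.7% and in Igf2r and Airn 45.0%. In the larger windows the share was 28.7% for Snrpn to Mkrn3, 24.0% for H19 to Phlda2 and 23.6% for Dlk1 to Dio3. The map of regions shows this layout, with the tallest region of each window at 0.

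**Figure D1:**
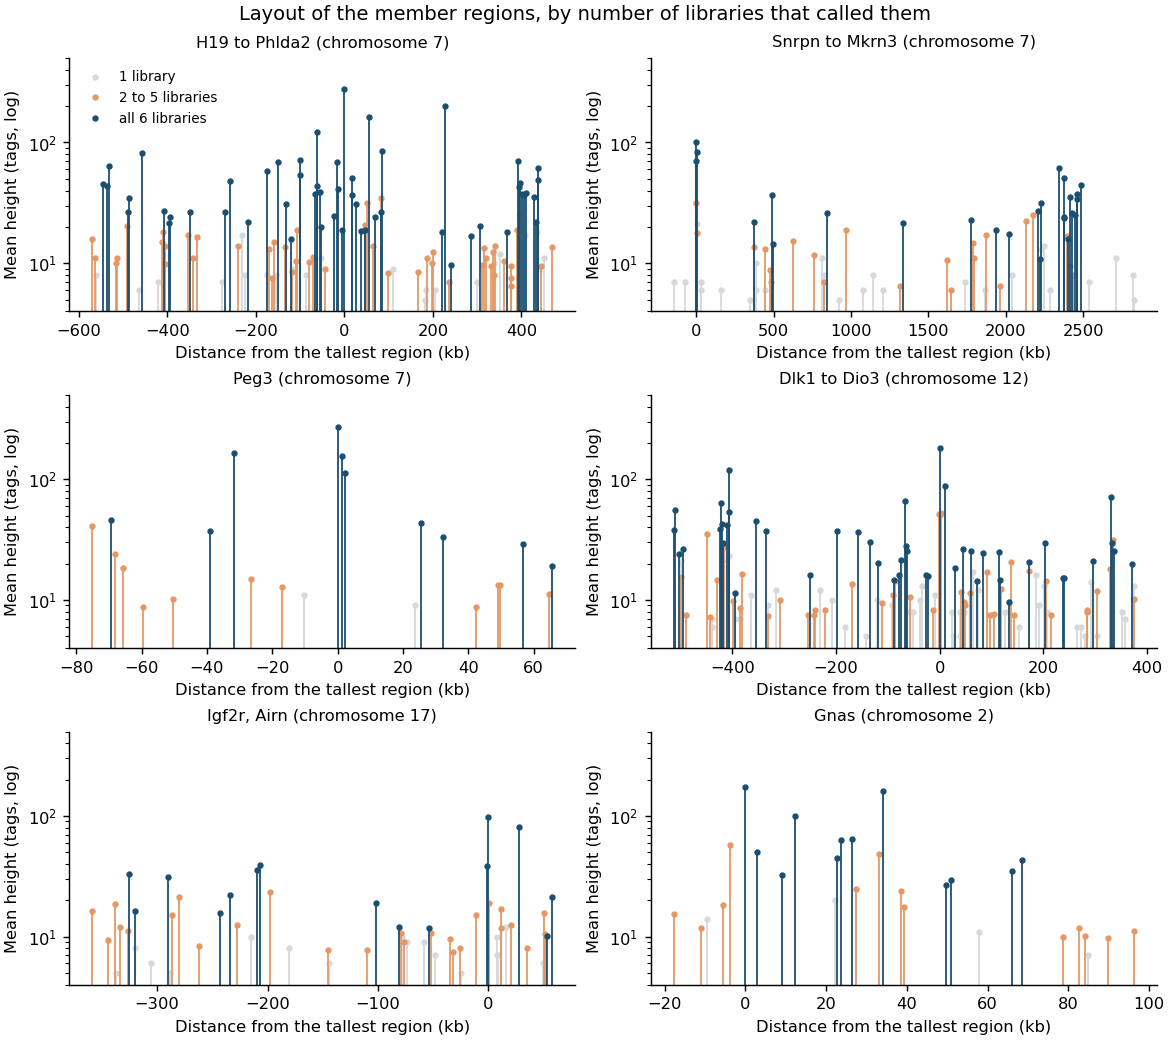
Mean summit height in tags (log axis) of each of the 439 regions against its distance in kb from the tallest region of its window, coloured by the number of libraries that called it. Tall regions were mostly called in all 6 libraries, and the Snrpn to Mkrn3 window holds its tallest regions at one end, with many of its other regions called in all 6 near the other end.

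Fewer regions of the imprinted set were called in the mutants than in WT. WT replicates 1 and 2 called 316 and 311 of the 439 regions, KO 250 and 232 and del-cIDR 255 and 266. Both WT libraries were above all 4 mutant libraries, and the del-cIDR libraries were above the KO libraries. As a share this is 71.4% ± 0.806 in WT, 54.9% ± 2.90 in KO and 59.3% ± 1.77 in del-cIDR (SD, n = 2), where all 259376 regions gave 70.6% ± 2.52, 59.4% ± 3.61 and 58.9% ± 0.665. Within each KO library the share of the imprinted set was below that of all regions, 56.95% against 61.92% and 52.85% against 56.82%. In WT and in del-cIDR replicate 1 was below all regions and replicate 2 above. The SD of 2 lists also reflects their length, so it is no yardstick for this comparison.

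List length bears on these counts. With every list cut to the same number of its strongest peaks, WT called 242 and 265 of 370 regions, KO 226 and 232 and del-cIDR 239 and 257. Both KO libraries stayed below both WT libraries, by 24.5 regions on average, while the del-cIDR libraries overlapped WT. As shares these are 65.4% and 71.6% (WT), 61.1% and 62.7% (KO) and 64.6% and 69.5% (del-cIDR). Over all regions at that length each library called 65.7% to 65.9%. Both KO libraries were thus below the share of all regions, and replicate 2 of WT and of del-cIDR was above it. In each of the H19 to Phlda2, Snrpn to Mkrn3, Peg3 and Igf2r and Airn windows both KO libraries were below both WT libraries at equal length, and in Dlk1 to Dio3 KO called 65 and 71 regions where WT called 65 and 72. In Gnas KO called 21 and 16 and WT 19 and 23, so these libraries overlapped too.

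**Figure D2:**
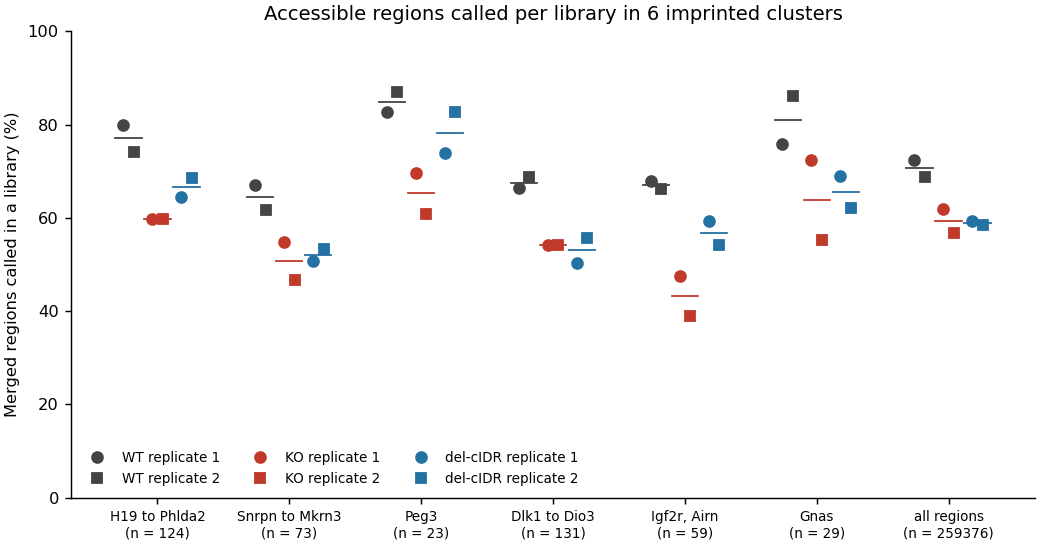
Share of the merged regions of each window that was called in each library, in percent, with lines at the genotype means and all 259376 regions at the right. With lists of full length WT lies above KO in every window and over all regions, and the Igf2r and Airn window has the lowest KO shares.

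By window, the H19 to Phlda2 regions were called 99 and 92 times (WT), 74 and 74 (KO) and 80 and 85 (del-cIDR), out of 124. For Snrpn to Mkrn3 the counts were 49 and 45, 40 and 34, and 37 and 39 of 73. Peg3 gave 19 and 20 (WT), 16 and 14 (KO) and 17 and 19 (del-cIDR), of 23. In 5 of the 6 windows, all but Peg3, both mutants lay below WT without overlap. The same held over all regions, of which WT called 72.42% and 68.85% and the mutant libraries 56.82% to 61.92%. It is therefore not particular to these windows. At equal list length the del-cIDR minus WT difference in the 5 windows ran from -2.5 to 2 regions. The Dlk1 to Dio3 counts were 87 and 90 (WT), 71 and 71 (KO) and 66 and 73 (del-cIDR), of 131. Igf2r and Airn gave 40 and 39, 28 and 23, and 35 and 32 of 59. Gnas gave 22 and 25, 21 and 16, and 20 and 18 of 29. The KO counts were also below the del-cIDR counts without overlap in H19 to Phlda2, Peg3 and Igf2r and Airn. An exact two-sided permutation test of 2 against 2 libraries cannot go below p = 0.333, so none of the 42 tests of calls and heights can pass a threshold, and the lowest adjusted p (Benjamini-Hochberg) was 0.483.

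Counted region by region, 42 of the 439 regions (9.57%) were called in both WT libraries and neither KO library, against 7.22% of all regions. In the other direction 6 (1.37%) were called in both libraries of KO and none of WT, against 1.89%. For del-cIDR, 26 regions (5.92%) were called in both WT libraries only, against 5.33%, and 3 (0.683%) in both del-cIDR libraries only, against 0.931%. Between the mutants, 12 (2.73%) were called in KO and not in del-cIDR, against 3.50%, and 21 (4.78%) in del-cIDR and not in KO, against 3.59%. The shares of del-cIDR against WT were close to the background, and those that set KO low were somewhat above it. At equal list length 30 of 370 regions (8.11%) had calls in both WT libraries and none in KO, against 4.73% of all regions, and 12 (3.24%) in KO and not in WT, against 4.03%. At that length 13 (3.51%) were called in WT and not in del-cIDR, against 2.79%, and 4 (1.08%) in del-cIDR and not in WT, against 2.52%. For KO and not del-cIDR it was 14 (3.78%), against 3.76%, and for del-cIDR and not KO 21 (5.68%), against 4.12%.

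Calls found in WT and missing from KO are given by window as counts, with no test between windows and 7.22% over all regions beside them. Igf2r and Airn held 10 of them among 59 regions (16.9%), H19 to Phlda2 13 among 124 (10.5%), Peg3 3 among 23 (13.04%), Dlk1 to Dio3 10 among 131 (7.63%), Snrpn to Mkrn3 5 among 73 (6.85%) and Gnas 1 among 29 (3.45%). At equal list length, with 4.73% over all regions, the counts were 8 of 45 (17.8%) for Igf2r and Airn, 7 of 108 (6.48%) for H19 to Phlda2, 3 of 22 (13.6%) for Peg3, 7 of 113 (6.19%) for Dlk1 to Dio3, 5 of 54 (9.26%) for Snrpn to Mkrn3 and 0 of 28 for Gnas. Both comparisons with WT share the same WT libraries, so they are not independent. Of the whole set 14 regions (3.19%) were called in both WT libraries and no mutant library, against 2.65% of all regions, and 2 (0.456%) in all 4 mutant libraries and neither WT library, against 0.194%.

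Height was compared over the 162 regions called in all 6 libraries. A relative height is the log2 of the summit height in tags minus the median log2 height of the same library over regions called in all 6 on 16 autosomes (all but 6, 8 and 11), so 0 is a typical region. Over all 162 regions the median relative height was -0.02 and 0.00 (WT), -0.11 and -0.06 (KO) and 0.07 and 0.09 (del-cIDR). The order KO, WT, del-cIDR held without overlap, but the steps were under 0.1 on the log2 scale, and KO minus WT was -0.00 among regions of at least 20 tags.

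Region by region, 43 of the 162 (26.5%) were higher in both WT libraries than in both KO libraries, against 20.6% of the 99146 regions called in all 6, and 44 (27.2%) were higher in both KO libraries, against 40.6%. For del-cIDR, 24 (14.8%) were lower than WT without overlap, against 21.3%, and 46 (28.4%) were higher, against 22.9%. Between the mutants 38 (23.5%) were higher in KO, against 39.5%, and 57 (35.2%) were higher in del-cIDR, against 20.05%. All 4 mutant libraries were above both WT libraries in 25 regions (15.4%, against 13.9%) and below both in 14 (8.64%, against 8.03%).

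Heights in KO differed from WT in a way that depends on height itself. Over all regions the median KO minus WT difference was 0.02 in the third of 10 height classes and 0.32 in the tallest class, and for del-cIDR it ran from -0.05 to 0.09. With the median of each library in each class taken off, which moves the median KO minus WT difference of all regions from 0.13 to 0.01, 56 of the 162 (34.6%) were higher in WT than in KO, against 28.2% of all regions, and 35 (21.6%) were higher in KO, against 28.8%. Values taken that way are called height-matched here. On this scale 75 (46.3%) were higher in del-cIDR than in KO, against 28.2%, and 25 (15.4%) higher in KO, against 28.4%. For del-cIDR and WT, 25 (15.4%) were higher in WT, against 22.4%, and 48 (29.6%) higher in del-cIDR, against 21.98%. On either scale KO was the higher genotype in a smaller share of imprinted regions than of all regions, against both WT and del-cIDR. By genotype means of relative height, KO was above WT in 50.6% of the 162 regions and in 61.9% of all regions. Over the rest of chromosomes 2, 7, 12 and 17 this share was 59.6% to 59.8%. Del-cIDR was above KO in 56.8% of the 162, in 38.2% of all regions and in 33.8% to 41.2% over the rest of these chromosomes.

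**Figure D3:**
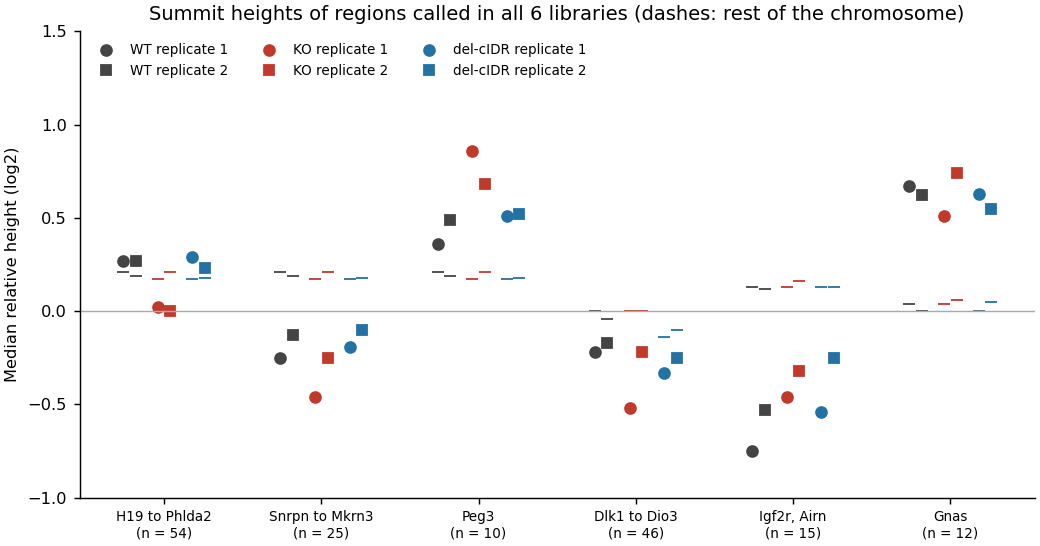
Median relative height (log2) over the regions called in all 6 libraries in each window, 1 point per library, with dashes for the rest of the same chromosome in that library. KO lies below WT in H19 to Phlda2 and above it in Peg3, while the rest of the chromosome is level.

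The H19 to Phlda2 window holds H19, a maternally expressed noncoding RNA, Igf2, a paternally expressed growth factor, Ins2 (insulin), Th (tyrosine hydroxylase), Ascl2, a transcription factor of the placenta, the tetraspanins Tspan32 and Cd81, and Tssc4. Also listed with it are the channels Trpm5 and Kcnq1, the noncoding RNA Kcnq1ot1 that silences its neighbours on the paternal chromosome, the cell cycle inhibitor Cdkn1c, the transporter Slc22a18, Phlda2, which limits placental growth, and Nap1l4, a histone chaperone. As the genes were not placed on GRCm39, the start of a listed gene can lie beyond a window limit. The 54 regions of this window called in all 6 libraries had a lower median height in KO. The median relative height was 0.27 and 0.27 (WT), 0.02 and -0.00 (KO) and 0.29 and 0.23 (del-cIDR). Both KO libraries lay below the other 4, and WT and del-cIDR overlapped. The KO minus WT difference of the medians was -0.26, where the rest of chromosome 7 had 0.20 ± 0.014 in WT and 0.19 ± 0.028 in KO (SD, n = 2).

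Taken region by region the difference was smaller. On that measure the median KO minus WT difference in this window was -0.04, with 23 of 54 regions higher in KO, against 0.10 and 59.8% over the rest of chromosome 7. Height-matched, it was -0.11 with 12 of 54 higher in KO, against -0.04 and 45.2%. The difference of the medians was -0.46 without KO replicate 1 and kept its sign without any one library. The local background that the peak caller used around these regions, as a ratio to the lowest background of the library, was 2.42 ± 0.099 in WT, 2.01 ± 0.042 in KO and 2.44 ± 0.035 in del-cIDR (SD, n = 2). The rest of chromosome 7 was also lower in KO, from 2.16 ± 0.000 in WT to 1.94 ± 0.014 in KO, and all regions went from 1.91 ± 0.014 to 1.775 ± 0.021 (SD, n = 2). The span over which this background was taken is not given. It can include the tags of the regions themselves, so it is not a separate measure of their surroundings.

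The tallest region of this window, chr7:142622518-142623450, was high in every library. It had 249 and 280 tags (WT), 330 and 247 (KO) and 276 and 271 (del-cIDR), and at most 0.37% of the regions of any list were as tall. Relative to each library it was higher in KO than WT by 0.35 ± 0.01 (log2, pooled SD, n = 2 per genotype), but the height-matched difference was 0.04, so it differed little from other regions of that height. All 6 summits fell on the same base.

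A region at chr7:142491500-142492556 had the largest KO difference of the window. It had 38 and 49 tags (WT), 14 and 11 (KO) and 32 and 42 (del-cIDR). Both KO libraries were far below the other 4, by -1.56 ± 0.10 against WT on the log2 scale (pooled SD, n = 2) and by -1.60 height-matched, while del-cIDR overlapped WT. The local background there was 2.3 and 2.7 times the library floor (WT), 1.0 and 1.0 (KO) and 2.1 and 2.1 (del-cIDR). This background can include the tags of the region itself, so its low value in KO is not separate from the low summit. The 6 summits lay up to 285 bp apart, against a median of 62.5 bp in the window, so they are not 1 summit.

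Further on, chr7:142514707-142515122 had 20 and 22 tags (WT), 18 and 16 (del-cIDR) and no call in KO. The region at the low edge of the window, chr7:142052637-142053451, had the same pattern, with 18 and 19 tags (WT) and 12 and 14 (del-cIDR), though its summits lay up to 318 bp apart. In each library that called them both stood well above the lowest height of a list, 5 to 6 tags. The third of the tallest regions lost in KO, chr7:142382676-142382956, had 15 and 12 tags (WT) and 15 in del-cIDR replicate 1 only.

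The largest del-cIDR difference went the other way. Region chr7:142133842-142134561 had 23 and 18 tags (WT), 30 and 16 (KO) and 41 and 33 (del-cIDR), 0.96 ± 0.29 above WT (log2, pooled SD, n = 2). Close by, chr7:142131871-142132109 had 25 and 21 tags in del-cIDR, 15 in WT replicate 2 and no call elsewhere. At the first place both del-cIDR libraries were the highest, and at the second WT replicate 1 and both KO libraries have no height to compare. Region chr7:142212860-142213358 was called in KO (18 and 8 tags) and del-cIDR (25 and 21 tags) and in no WT library, but its summits lay up to 365 bp apart, so the 4 peaks are not 1 summit.

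Peg3 encodes a zinc finger protein and is expressed from the paternal chromosome together with Usp29, a ubiquitin protease that starts next to it in the other direction, while Zim1, another zinc finger gene, is maternally expressed. In the Peg3 window KO was higher than WT. Over its 10 regions called in all 6 libraries the median relative height was 0.36 and 0.49 (WT), 0.86 and 0.68 (KO) and 0.51 and 0.52 (del-cIDR). KO was above the other 4 libraries, by 0.34 against WT, and the difference stayed between 0.26 and 0.45 without any one library. Region by region the median KO minus WT difference was 0.44 with 7 of 10 regions higher in KO, and 0.14 with 5 of 10 higher when height-matched, against 0.10 and -0.04 over the rest of chromosome 7.

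Its tallest region, chr7:6730237-6731997, was 1761 bp wide. It had 222 and 231 tags (WT), 352 and 282 (KO) and 273 and 255 (del-cIDR). All 4 mutant libraries were above WT and both KO libraries were the highest. The KO minus WT difference was 0.72 ± 0.07 and the del-cIDR minus WT difference 0.33 ± 0.06 (log2, pooled SD, n = 2), or 0.40 and 0.23 height-matched. The local background around it was 22.4 and 23.5 times the library floor (WT), 32.4 and 32.9 (KO) and 30.4 and 29.1 (del-cIDR), the same order as the summits, whose own tags it can include.

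The neighbouring region chr7:6732432-6732739 had 115 and 144 tags (WT), 213 and 146 (KO) and 151 and 156 (del-cIDR), 0.70 ± 0.11 higher in KO (log2, pooled SD, n = 2). A further neighbour, chr7:6733324-6733595, named after its values were seen, had 83 and 111 tags (WT), 155 and 110 (KO) and 110 and 105 (del-cIDR), 0.68 ± 0.13 higher in KO. These 3 regions are neighbours and share a local background, so they are not 3 separate observations. The other tall region of the window, chr7:6699137-6699857, had 142 and 196 tags (WT), 189 and 138 (KO) and 148 and 167 (del-cIDR), and its relative KO difference of 0.19 ± 0.15 was -0.12 height-matched.

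Some small regions of this window were called in WT and in no KO library. Region chr7:6665299-6665591 had 23 and 17 tags (WT), 15 in del-cIDR replicate 1 and no call in KO. The adjacent regions chr7:6780169-6780468 and chr7:6780726-6780984 had 13 and 15, and 11 and 15 tags (WT), 12 and 14 in del-cIDR replicate 2, and no call in KO. The largest KO difference, at chr7:6756453-6756875, was upward, with 41 and 34 tags (WT), 64 and 47 (KO) and 45 and 31 (del-cIDR) (0.80 ± 0.22, log2, pooled SD, n = 2). The largest del-cIDR difference, at chr7:6691582-6692422, was 0.39 ± 0.01, from 35 and 40 tags (WT) and 46 and 45 (del-cIDR), with 33 and 26 in KO. The window thus held tall regions higher in KO and small ones called in WT and not in KO. Neither is particular to this window. Over all regions the median KO minus WT difference of the tallest class was 0.32. Calls in WT and not in KO made up 7.22% of all regions, against 3 of 23 (13.04%) here.

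**Figure D4:**
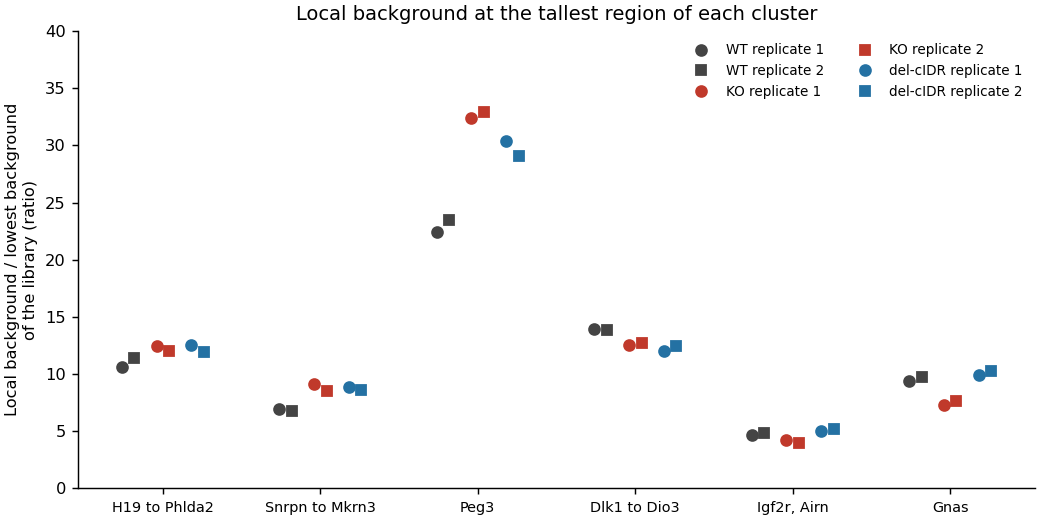
Local background at the tallest region of each window, as a ratio to the lowest background of the same library, 1 point per library. At Peg3 the 2 KO libraries reach 32.4 and 32.9 and WT 22.4 and 23.5, and at Gnas both KO libraries lie below WT.

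The Snrpn to Mkrn3 window corresponds to the human Prader-Willi syndrome region and holds the paternally expressed genes Snrpn, a splicing protein, Snurf, the MAGE family genes Ndn and Magel2, and Mkrn3, a ubiquitin ligase. Its median relative height over 25 regions was -0.25 and -0.13 (WT), -0.46 and -0.25 (KO) and -0.19 and -0.10 (del-cIDR), so KO replicate 2 equalled WT replicate 1 to 2 decimals. The KO minus WT difference of -0.17 became 0.11 among regions of at least 20 tags, and the region by region median was 0.02, with 15 of 25 higher in KO. No direction of KO against WT held for this window. The del-cIDR minus KO difference was 0.21 without overlap, and it was 0.02 among regions of at least 20 tags and 0.15 to 0.31 without any one library. The del-cIDR minus WT difference was 0.04 with the libraries overlapping, while region by region 18 of 25 were higher in del-cIDR, against 54.4% over the rest of chromosome 7.

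Its tallest 3 regions lie side by side at the low end. The tallest, chr7:59652600-59653195, had 80 and 84 tags (WT), 150 and 99 (KO) and 91 and 96 (del-cIDR). KO replicate 1 stood out, both KO libraries were above all others, and the relative difference from WT was 0.81 ± 0.11 in KO and 0.30 ± 0.08 in del-cIDR (log2, pooled SD, n = 2), or 0.61 and 0.24 height-matched. Region chr7:59653700-59654374 had 56 and 61 tags (WT), 81 and 58 (KO) and 83 and 80 (del-cIDR), 0.47 ± 0.05 higher in KO and 0.59 ± 0.02 higher in del-cIDR. The third, chr7:59655926-59656463, had 81 and 81 tags (WT), 91 and 72 (KO) and 82 and 95 (del-cIDR), and 0.03 separated KO from WT once height-matched. The local background of the first region, which can include its own tags, was 6.9 and 6.7 times the floor (WT), 9.1 and 8.5 (KO) and 8.8 and 8.6 (del-cIDR), higher in all 4 mutant libraries.

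Near the other end, chr7:62069017-62070091 had the largest del-cIDR difference of the window. It had 27 and 25 tags (WT), 46 and 30 (KO) and 38 and 46 (del-cIDR), 0.79 ± 0.21 higher in del-cIDR and 0.76 ± 0.18 higher in KO. The adjoining region chr7:62068374-62068851 was called in WT alone, with 9 and 10 tags. Regions called in WT and not in KO were small, such as chr7:60281181-60281323 with 12 and 18 tags (WT) and 16 in del-cIDR replicate 2, and chr7:60029615-60029740 with 10 and 17 tags (WT) alone. In KO alone, chr7:61614907-61615114 had 8 and 5 tags, at the calling limit.

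The Dlk1 to Dio3 window holds the paternally expressed Dlk1, a membrane protein related to Notch ligands, Rtl1, a gene derived from a retrotransposon, and Dio3, which inactivates thyroid hormone, and the maternally expressed noncoding RNAs Meg3, Rian and Mirg. By the RefSeq gene order, 58 miRNA hairpins with 114 mature miRNAs lie between Dlk1 and Dio3, and silencing of this maternal transcript is a known defect of some stem cell lines. The median relative height over 46 regions was -0.22 and -0.17 (WT), -0.52 and -0.22 (KO) and -0.33 and -0.25 (del-cIDR). KO replicate 1 was the lowest and KO replicate 2 was level with WT replicate 1, so KO and WT were not separated. The KO minus WT difference was -0.08 without KO replicate 1 and -0.34 without KO replicate 2. The del-cIDR difference of -0.10 was 0.00 against the rest of chromosome 12, which itself was -0.02 ± 0.028 in WT and -0.12 ± 0.028 in del-cIDR (SD, n = 2).

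The tallest region of the window, chr12:109914474-109915591, had 187 and 204 tags (WT), 206 and 161 (KO) and 167 and 158 (del-cIDR). Its relative height was 0.14 ± 0.03 above WT in KO and -0.16 ± 0.03 against WT in del-cIDR (log2, pooled SD, n = 2), or -0.18 and -0.26 height-matched. So the KO direction depends on the scale and the del-cIDR direction does not. The second tallest, chr12:109508646-109509142, had 125 and 147 tags (WT), 108 and 98 (KO) and 120 and 117 (del-cIDR), -0.16 ± 0.13 in KO and -0.47 height-matched.

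Around the tallest region the small neighbours differed in which library called them. Region chr12:109916098-109916350 had 53 and 59 tags (WT), 37 and 53 in del-cIDR and no call in KO. Next to it, chr12:109917152-109917550 had 55 and 49 tags in KO and no call in WT or del-cIDR. On the other side, chr12:109913499-109913628 had 58 and 50 tags (WT), 46 in KO replicate 1 and no call elsewhere. The local background there was 15.2 tags in WT replicate 1 and 15.9 in KO replicate 1, so a summit needs many more tags to be called than in most places, and a missing call does not mean a low height.

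The largest KO difference was at chr12:109779341-109780587, with 36 and 53 tags (WT), 17 and 11 (KO) and 34 and 29 (del-cIDR). Both KO libraries were the lowest, by -1.43 ± 0.22 against WT, and del-cIDR lay lower than WT by -0.37 ± 0.21 (log2, pooled SD, n = 2). In both mutants chr12:110251205-110251608 was lower, with 45 and 38 tags (WT), 19 and 10 (KO) and 22 and 17 (del-cIDR), -1.34 ± 0.33 and -0.99 ± 0.26. The region just before it, chr12:110250205-110250555, had 39 and 39 tags (WT), 16 in del-cIDR replicate 1 and no call in KO. At the first of these neighbours WT was above all 4 mutant libraries, and at the second 3 of the mutant libraries have no height to compare.

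The Igf2r and Airn window holds the maternally expressed Igf2r, a receptor that takes IGF2 to the lysosome, Airn, the paternal antisense noncoding RNA that silences it, and the organic cation transporters Slc22a2 and Slc22a3. Regions here were the lowest of the 6 windows, and the share called in KO, 43.2% ± 5.996 (SD, n = 2), was the lowest of the 6. The median relative height over 15 regions was -0.75 and -0.53 (WT), -0.46 and -0.32 (KO) and -0.54 and -0.25 (del-cIDR), while the rest of chromosome 17 had 0.13 ± 0.007, 0.15 ± 0.021 and 0.13 ± 0.000 (SD, n = 2). The KO minus WT difference of the medians was 0.25, but it was 0.03 without KO replicate 2, the region by region median was -0.11, and it was -0.38 among regions of at least 20 tags. No direction of height in KO is therefore given for this window. In del-cIDR 13 of 15 regions were higher than WT, with a median difference of 0.17, against 54.7% and 0.03 over the rest of chromosome 17. The del-cIDR minus WT difference of the medians was 0.24 with the libraries overlapping, and -0.00 among regions of at least 20 tags.

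Its tallest region, chr17:12960078-12960694, had 104 and 110 tags (WT), 101 and 70 (KO) and 102 and 105 (del-cIDR). The libraries were alike apart from KO replicate 2, and relative heights differed from WT by -0.11 ± 0.08 in KO and 0.06 ± 0.06 in del-cIDR (log2, pooled SD, n = 2). The second, chr17:12987932-12989014, had 86 and 110 tags (WT), 75 and 48 (KO) and 88 and 80 (del-cIDR), -0.46 ± 0.15 in KO. A region at chr17:12961073-12961682 was called in KO (20 and 19 tags) and del-cIDR (19 and 18 tags) and in no WT library, but summits lay up to 502 bp apart, so it is a chain of peaks and not 1 shared summit.

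The largest KO difference was at chr17:12751004-12751419, with 48 and 51 tags (WT), 23 and 16 (KO) and 43 and 35 (del-cIDR). KO was below the other 4 libraries, by -1.13 ± 0.07 against WT (log2, pooled SD, n = 2). The nearby chr17:12753419-12753953 had 38 and 42 tags (WT), 42 and 34 (KO) and 35 and 43 (del-cIDR), with the libraries mixed. So the difference did not extend to the next region. Upward, chr17:12725613-12726880 had 15 and 20 tags (WT), 27 and 24 (KO) and 22 and 26 (del-cIDR), 0.80 ± 0.17 and 0.57 ± 0.19 above WT, with summits up to 257 bp apart.

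Of the 10 regions of this window called in WT and not in KO, the tallest 3 were well above the calling limit. Region chr17:12762635-12762764 had 25 and 25 tags (WT) and 20 in del-cIDR replicate 1. Region chr17:12680194-12680357 had 17 and 23 tags (WT) and 24 in del-cIDR replicate 1. At chr17:12622325-12622775 WT had 16 and 19 tags and del-cIDR 24 and 15. Also called in del-cIDR and not in KO were chr17:12601521-12601808, with 16 and 12 tags (WT) and 19 and 18 (del-cIDR), and chr17:12948688-12949218, with 11 and 16 (WT) and 19 and 14 (del-cIDR). At the first and second of these 5 places del-cIDR replicate 2 had no call either, and at the other 3 both del-cIDR libraries did. At equal list length the count of regions called in WT and not in KO was 8 of 45 (17.8%), against 4.73% of all regions. Under a stricter limit on peak significance (-log10 q of at least 5) it was 10. The share of all regions at that limit is not given here.

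Gnas encodes the stimulatory G protein alpha subunit and shares its locus with maternally and paternally expressed alternative transcripts and the antisense RNA Nespas. This was the densest window, and its regions were tall in every genotype. The median relative height over 12 regions was 0.67 and 0.62 (WT), 0.51 and 0.74 (KO) and 0.63 and 0.55 (del-cIDR), where the rest of chromosome 2 had 0.02 to 0.05 as genotype means. The libraries of the 3 genotypes overlapped, and no genotype stood apart.

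Its tallest region, chr2:174103061-174103529, had 153 and 172 tags (WT), 195 and 156 (KO) and 180 and 188 (del-cIDR). The relative difference was 0.35 ± 0.04 in KO and 0.29 ± 0.05 in del-cIDR (log2, pooled SD, n = 2), or 0.03 and 0.19 height-matched. The local background around it was 9.4 and 9.7 times the floor (WT), 7.3 and 7.6 (KO) and 9.9 and 10.2 (del-cIDR), so here this background was lower in KO while the relative height of the summit was not. The second tallest, chr2:174136960-174137656, had 145 and 176 tags (WT), 167 and 121 (KO) and 169 and 193 (del-cIDR).

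Both regions with the largest differences of this window lay close together. Region chr2:174105900-174106423 had 58 and 72 tags (WT), 36 and 30 (KO) and 52 and 53 (del-cIDR), -0.73 ± 0.10 in KO and -0.19 ± 0.08 in del-cIDR (log2, pooled SD, n = 2). Region chr2:174112125-174112530 had 42 and 45 tags (WT), 25 and 22 (KO) and 30 and 31 (del-cIDR), -0.65 ± 0.11 and -0.40 ± 0.06. At both, all 4 mutant libraries were below WT in tags and KO was the lowest. The summits of the second lay up to 201 bp apart. At 333 bp wide, chr2:174097575-174097907 had 14 and 20 tags (WT), 21 in KO replicate 1 and no call in del-cIDR.

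**Figure D5:**
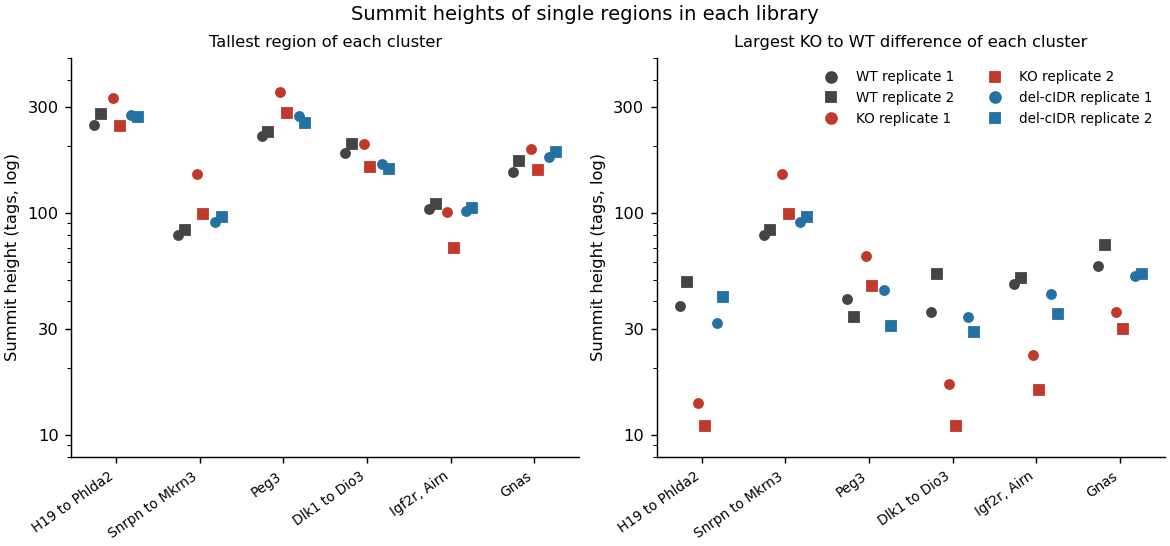
Summit height in tags (log axis) in each library, for the tallest region of each window (left) and the region with the largest KO to WT difference among regions called in all 6 libraries with a mean of at least 20 tags (right). On the right KO lies below WT in H19 to Phlda2, Dlk1 to Dio3, Igf2r and Airn and Gnas, and above it in Snrpn to Mkrn3 and Peg3.

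Side by side, the largest KO difference of a window was downward in H19 to Phlda2 (-1.56), Dlk1 to Dio3 (-1.43), Igf2r and Airn (-1.13) and Gnas (-0.73), and upward in Snrpn to Mkrn3 (0.81) and Peg3 (0.80). The del-cIDR values at the same 6 regions were -0.13, -0.37, -0.24, -0.19, 0.30 and 0.11, in each case with the sign of KO and a smaller size. These are the extremes of their windows for KO, picked by that difference, and KO and del-cIDR share the WT libraries, so the smaller del-cIDR size is a description. Among the tallest regions the 6 windows had KO minus WT differences from -0.11 to 0.81, or -0.31 to 0.61 height-matched.

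The window limits are round positions, and regions also lay just outside them. At the Phlda2 end the last region inside, chr7:143093049-143093288, had a mean of 13.5 tags in the 2 libraries that called it, and the first outside, chr7:143102165-143103510, had 199.3 tags and was called in all 6. At the low end of Igf2r and Airn the values were 16.2 tags inside and 38.7 outside, and at its high end 21.2 and 22.0. A tall region can therefore lie just beyond a limit.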

How the data were processed

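Open chromatin was measured by ATAC-seq in 6 libraries, 2 each of WT, KO and del-cIDR, grouped by the genotype labels. The submitters' processing notes name GRCm39 as the build and list MACS2, BWA, Picard, SAMtools, fastp and featureCounts as tools. Their versions, their settings and any shift of reads to the cut site: not given in the sources used here. The authors deposited 1 peak list per library, without pooling, with the fold over local background (a ratio), −log10 p, −log10 q and the summit position of each peak. In every list the highest q is 0.05. A ratio or −log10 value belongs to its own list.

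From the deposited fold and −log10 p, the summit height and local background were solved with the MACS2 formula, and the height came out whole within 0.1 tags in 100% of 1016776 peaks. Total reads are not analysed here, so the heights in tags are the only measure of depth. Peaks on the spike-in sequence were kept apart. Regions, relative heights and 3 genotype comparisons followed as given above, with exact two-sided permutation tests over libraries, Benjamini-Hochberg adjusted over 42 tests. The scripts, tested on simulated data, used Python 3.11.15, pandas 2.3.3, NumPy 2.4.6, SciPy 1.17.1 and matplotlib 3.10.9.

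The members and lists were chosen with earlier results of these data known. Regions named were taken from a list that holds, per window, the tallest, up to 3 called in 1 genotype (both libraries) and not at all in another, and the largest difference from WT of each mutant among regions called in all 6 with a mean of at least 20 tags. Not every region of that list is named. The next tallest regions were added. The gene tables used here are of GRCm38.p6, another build, so gene starts were not placed on the peaks. Promoters of the listed genes, imprint control regions, other imprinted genes, maintenance factors, Alkbh5 and cell type markers were therefore planned and not analysed here. Alternatives were peaks with −log10 q of at least 5, equal list length, merging at 50 bp, other references for height, regions of at least 20 tags, a replicate block, leaving out each library, and, added after seeing the data, height-matched values. The local background was also read after seeing the data.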

Additional observations from a re-analysis of the deposited data

Results flagged for a closer look

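Peaks on the spike-in sequence, which enter none of the comparisons, numbered 2082 and 1977 in KO, above the 1679 and 1568 of WT, and 1199 and 1104 in del-cIDR; their part in the results at the imprinted windows was not tested.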

How the results depend on the processing

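Each genotype has 2 libraries, and total depth is not analysed here. The causes of the changes below were not tested. Over all windows, the difference in regions called, del-cIDR minus WT, was -53, and -30.5 at -log10 q of at least 5 and -5.5 at equal list length. For del-cIDR minus KO it was 19.5, and 35.5 at -log10 q of at least 5. For KO minus WT it was -72.5, and -24.5 at equal list length. Regions called in KO and not in WT numbered 6 of 439 (1.37%, against 1.89% of all regions), and 3 at -log10 q of at least 5. At equal list length they numbered 12 of 370 (3.24%, against 4.03%). Those in KO and not in del-cIDR were 12 (2.73%, against 3.50%), and 5 under that q limit. Those in WT and not in del-cIDR went from 26 (5.92%, against 5.33%) to 13 at equal list length (3.51%, against 2.79%). At equal list length the shares of all regions thus moved in the same direction as these counts. Shares of all regions under the q limit are not given here. The difference in relative height over all windows was -0.07 for KO minus WT, 0.09 for del-cIDR minus WT and 0.16 for del-cIDR minus KO. These were -0.12, 0.11 and 0.24 against all chromosomes and also when height-matched, and -0.00, 0.06 and 0.06 among regions of at least 20 tags. Regions higher in KO than in del-cIDR went from 38 (23.5%, against 39.5% of all regions) to 25 when height-matched (15.4%, against 28.4%).

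By window, the KO minus WT height of Igf2r and Airn was -0.26 at -log10 q of at least 5, -0.21 at equal list length and -0.38 at 20 tags or more, against 0.25. The del-cIDR minus WT height of Peg3 was -0.04 at -log10 q of at least 5 and -0.06 at 20 tags or more, against 0.09. That of Dlk1 to Dio3 was 0.00 against the same chromosome and 0.05 at 20 tags or more, against -0.10. The KO minus WT height of Snrpn to Mkrn3 was 0.11 at 20 tags or more, against -0.17, and the del-cIDR minus WT calls of Igf2r and Airn were 2 at equal list length, against -6. The del-cIDR minus WT height of Igf2r and Airn was -0.00 at 20 tags or more, against 0.24. The KO minus WT differences of the window medians of H19 to Phlda2 and Peg3 kept their direction under every alternative. This does not extend to the region by region measure. On it the median difference of H19 to Phlda2 was only -0.04. In Peg3 5 of 10 regions were higher in KO when height-matched.

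Leaving out one library at a time, the difference in calls ran from -82 to -63.5 for KO minus WT, from -58.5 to -46.5 for del-cIDR minus WT and from 10.5 (without KO replicate 2) to 28 for del-cIDR minus KO. Heights over all windows ran from -0.11 (without KO replicate 2) to -0.05, from 0.07 to 0.14 (without WT replicate 2) and from 0.17 to 0.20. Counts of regions called in one genotype and not another need fewer calls when a library of either genotype is left out. They ran from 42 to 86 for WT and not KO, 6 to 29 for KO and not WT, 26 to 66 for WT and not del-cIDR, 2 to 24 for del-cIDR and not WT, 12 to 44 for KO and not del-cIDR and 21 to 55 for del-cIDR and not KO. Counts of heights without overlap ran from 47 to 77 for WT above KO, 43 to 65 for KO above WT, 28 to 49 for WT above del-cIDR, 50 to 83 for del-cIDR above WT, 36 to 56 for KO above del-cIDR and 61 to 95 for del-cIDR above KO. Shares over all regions with a library left out are not given here. The ranges of both kinds of count therefore cannot be read as particular to the imprinted set.

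Libraries with the same replicate number did not deviate together (correlations of -0.00, -0.01 and 0.01 for the 3 comparisons). With 2 libraries per genotype a replicate block cannot change a difference of genotype means. Its -72.5, -53 and 19.5 regions called are therefore no check of the differences. The alternatives for promoters of the listed genes were not run.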
